A study of Mus musculus with 9 samples.

Results

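The genes described here are 8 mouse genes of the interferon response: the oligoadenylate synthetase genes Oas1a, Oas2, Oas3 and Oasl2, the effector genes Ifit1, Ifit3 and Isg15, and the transcription factor gene Irf7. They were picked by gene name from expression tables that list 52025 genes, and they were proposed with results from the same libraries already known. Their differences between days are therefore given as a description, with no test. Each of the 8 names matched 1 row.

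The study followed the ovary of Kunming mice over postnatal day (PD) 14, 15 and 16, the days on which the first follicles form a fluid-filled antrum. RNA was sequenced from 3 libraries on each day, 9 in all. The 3 groups share strain, tissue and housing. Age (14, 15 or 16 days) is the difference the labels give between them, and anything else that followed the day cannot be told apart from it. The labels name no treatment or engineered allele, and the study describes the replicates as independent ovaries. The labels give granulosa cells as the source and ovary as the tissue. Granulosa cell markers were abundant in every library (Amh 168 to 261 FPKM), but oocyte and theca markers were abundant too: Zp3, a zona pellucida protein made by oocytes, was at 263 to 416 FPKM, and Cyp17a1, a theca cell androgen enzyme, at 19.9 to 46.5 FPKM. The libraries are thus described as ovary libraries below. FPKM counts fragments per kilobase of exon and scales them to the mapped fragments of the library. It sets a level per gene length, so levels can be set side by side between genes. Depth, worked out from the steps between low FPKM values, ran from 20367000 to 28729000 mapped fragments a library.

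Interferons are secreted when a cell senses viral or misplaced nucleic acid. Type I interferons bind the receptor IFNAR1-IFNAR2, whose JAK kinases phosphorylate STAT proteins. Together with IRF9, STAT proteins bind the interferon-stimulated response element (ISRE) in front of target genes. Among the targets are the OAS enzymes, which on binding double-stranded RNA make short 2′-5′ linked oligoadenylates, an antiviral signal. IFIT proteins bind foreign RNA and hinder its translation, ISG15 is a ubiquitin-like modifier, and IRF7 amplifies interferon production.

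RefSeq promoter windows on GRCm38.p6 were found for 7 of the 8 members, all but Oas2, and the 250 bases before each start were read. They are shown because the ISRE core is what most of these genes have in common in sequence. The core searched was GAAA, any 2 bases and GAAA again, on both strands, with overlapping matches allowed. It occurred in 5 of the 7 windows, those of Oas1a, Oas3, Ifit1, Ifit3 and Isg15, and in 2.98% of all 32851 windows of the same length. Capitals mark the matches below, each printed in the direction of its gene's transcription with up to 40 flanking bases, followed by the window of Oas1g, a close copy of Oas1a.
Oas1a: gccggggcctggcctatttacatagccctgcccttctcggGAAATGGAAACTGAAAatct
Oas3: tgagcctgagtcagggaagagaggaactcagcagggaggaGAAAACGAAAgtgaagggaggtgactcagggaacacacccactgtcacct
Ifit1: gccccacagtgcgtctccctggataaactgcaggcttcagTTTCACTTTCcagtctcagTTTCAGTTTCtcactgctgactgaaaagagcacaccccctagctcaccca
Ifit3: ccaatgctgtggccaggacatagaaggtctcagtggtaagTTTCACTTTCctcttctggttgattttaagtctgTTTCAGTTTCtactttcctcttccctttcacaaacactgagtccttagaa
Isg15: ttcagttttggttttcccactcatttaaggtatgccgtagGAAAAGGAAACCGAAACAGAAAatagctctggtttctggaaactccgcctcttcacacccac
Oas1g: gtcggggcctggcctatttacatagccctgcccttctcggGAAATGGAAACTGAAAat

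The Oas1a stretch lies at chr5:120907526-120907585 and the Oas3 stretch at chr5:120777685-120777774, both on the minus strand. The Ifit1 and Ifit3 stretches lie on the plus strand at chr19:34640745-34640853 and chr19:34583333-34583456, and the Isg15 stretch on the minus strand at chr4:156200835-156200936. The Oas1g stretch, chr5:120887614-120887671 on the minus strand, was identical to that of Oas1a at 57 of 58 bases. Isg15 held 3 overlapping matches, which begin between 66 and 78 bases before the start, whereas Oas3 held 1. The windows of Oasl2 and Irf7 held 0 matches to these letters.

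All 8 members were low. Mean levels over the 9 libraries fell in the order Isg15 (2.28 FPKM), Oasl2 (1.31), Irf7 (1.10), Ifit3 (0.744), Ifit1 (0.456), Oas2 (0.251), Oas1a (0.214) and Oas3 (0.0788 FPKM), and the ranges of every pair of neighbours in this order overlapped. Oasl2, Isg15 and Irf7 had a mean above 1 FPKM on at least 1 day, the filter for testing, and the other 5 members did not pass it. In fragments, Oas1a had 2 to 16 in a library, Oas3 5 to 20 and Isg15, for all its level per length, 28 to 59, while Oasl2 had 134 to 378 and Irf7 72 to 155. Whole fragments within 0.05 were recovered for all 72 member values.

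Between days, the members did not separate. In none of the 3 comparisons did all 3 libraries of a day lie above or below all 3 of another, for any of the 8 genes. Among the 21783 genes above 0 in every library, 9.22% lay wholly higher and 9.46% wholly lower at PD15 than at PD14. From PD14 to PD16 the shares were 12.3% higher and 12.3% lower, and from PD15 to PD16 they were 8.71% higher and 9.32% lower. On the log2(FPKM + 1) scale used for every difference here, which understates the change of low genes, the median member difference was 0.11 from PD14 to PD15, with 7 members higher and 1 lower. It was -0.06 from PD14 to PD16 (3 higher, 5 lower) and -0.17 from PD15 to PD16 (2 higher, 6 lower). With a pseudocount of 0.1 in place of 1 the 3 member medians were 0.29, -0.12 and -0.27. With the pseudocount of 1, the medians over all 15495 genes tested were 0.01 in each of the 3 comparisons. Without PD15 replicate 2 the member medians were 0.02, -0.06 and 0.02, so the first nearly vanished and the last turned its sign. The median from PD14 to PD16 turned its sign too, to 0.005 without PD14 replicate 2 and to 0.01 without PD16 replicate 1.

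**Figure D1:**
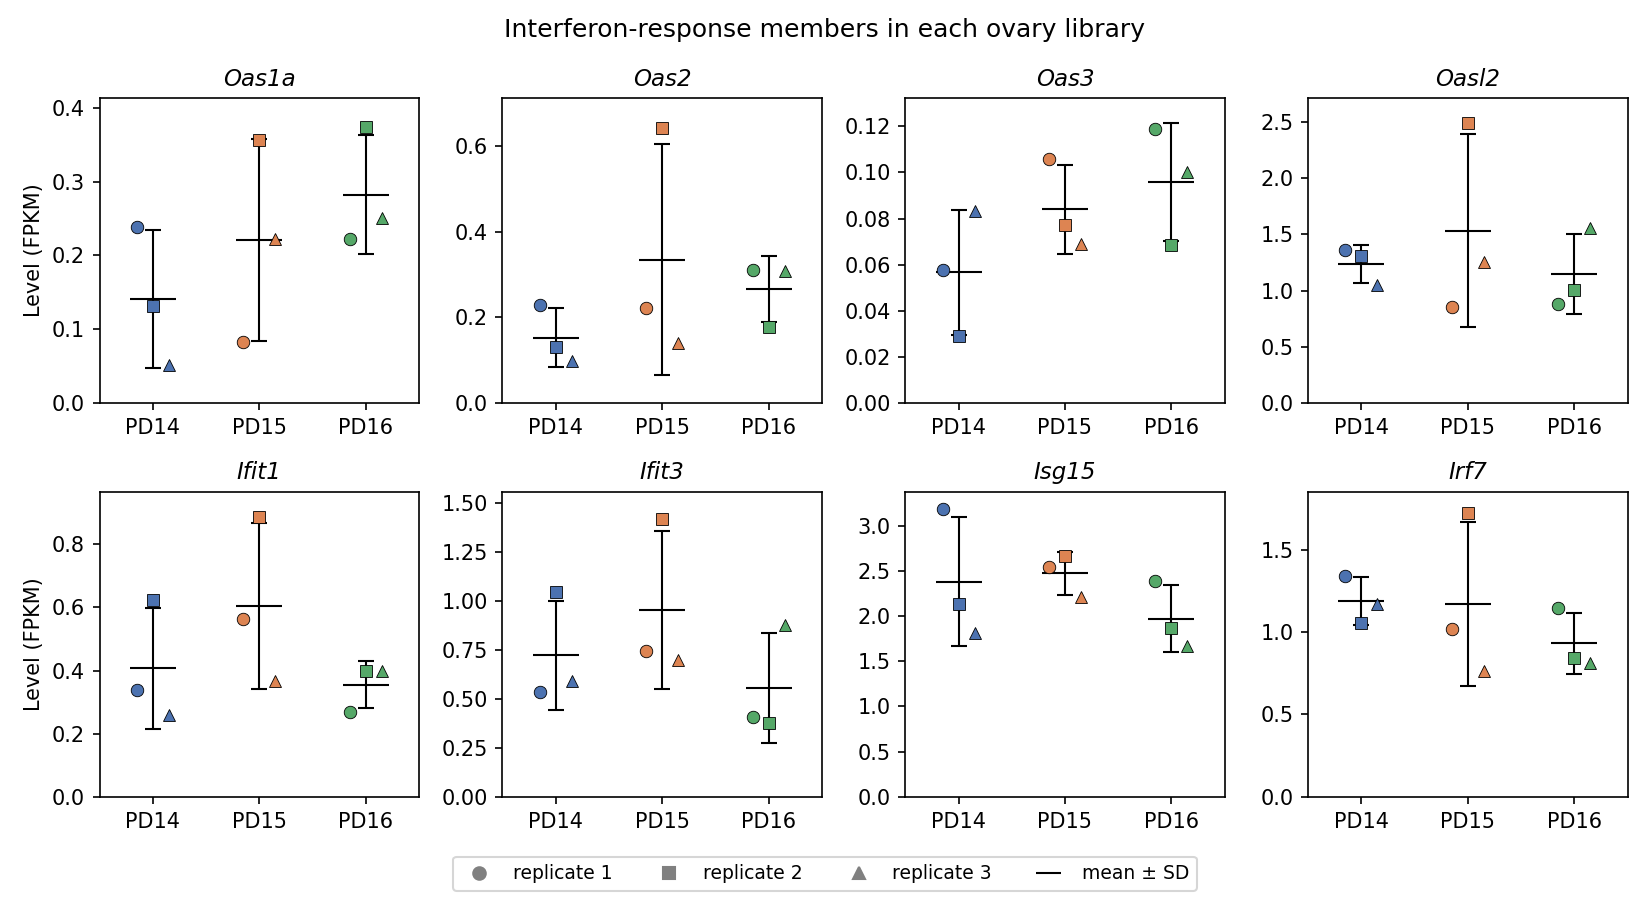
Level in FPKM (vertical axis, from 0, own scale in each panel) of the 8 members in the 3 libraries of PD14, PD15 and PD16. Points are libraries with the replicate number as shape, and bars are the day mean and SD (n = 3); PD15 replicate 2 (orange square) is the highest library for Oas2, Oasl2, Ifit1, Ifit3 and Irf7.

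Oas1a encodes an OAS1 enzyme that makes short oligoadenylates. At PD14 its level was 0.238, 0.132 and 0.0521 FPKM in replicates 1 to 3, at PD15 0.0834, 0.357 and 0.222 FPKM, and at PD16 0.223, 0.374 and 0.250 FPKM. The highest libraries were PD16 replicate 2 and PD15 replicate 2, with 16 fragments each, and all 3 days overlapped. The day means were 0.141 ± 0.0933, 0.221 ± 0.137 and 0.282 ± 0.0805 FPKM (SD, n = 3). With 2 fragments in PD14 replicate 3 (exact 95% Poisson interval 0.242 to 7.22, which covers counting error only), ratios of these means carry little precision. Because Oas1g is a close copy, reads between it and Oas1a may have been divided by the authors' counting, and the level of both is uncertain.

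Oas2 and Oas3 encode the larger enzymes of the family. Oas2 was at 0.229, 0.130 and 0.0993 FPKM at PD14, at 0.221, 0.642 and 0.141 FPKM at PD15, and at 0.311, 0.178 and 0.309 FPKM at PD16. PD15 replicate 2 stood apart from the other 8 libraries: it had 68 fragments (95% interval 52.8 to 86.2), and the next highest, PD16 replicate 3, had 35 (24.4 to 48.7). Its level was 3.22 times the median of the other 8 libraries. The other PD15 libraries lay inside the range of PD14 and PD16.

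Oas3 was at 0.0577, 0.0293 and 0.0833 FPKM at PD14, at 0.106, 0.0773 and 0.0689 FPKM at PD15, and at 0.119, 0.0685 and 0.1001 FPKM at PD16. It did not share the peak in PD15 replicate 2, where its level was 1.01 times the median of the other libraries. Oas3 was the least abundant member, and its days overlapped.

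Oasl2 encodes an OAS-like protein with ubiquitin-like domains. Its level was 1.36, 1.31 and 1.05 FPKM at PD14, 0.850, 2.49 and 1.26 FPKM at PD15, and 0.882, 1.01 and 1.55 FPKM at PD16. PD15 held both the lowest library (replicate 1) and the highest (replicate 2), with 138 (116 to 163) and 378 (341 to 418) fragments, whose counting intervals lie far apart. The day means, 1.24 ± 0.168, 1.53 ± 0.855 and 1.15 ± 0.357 FPKM, differed by less than the spread within PD15.

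Ifit1 and Ifit3, which lie in 1 cluster of IFIT genes on chromosome 19, varied together. Ifit1 was at 0.338, 0.623 and 0.259 FPKM at PD14, at 0.562, 0.886 and 0.367 FPKM at PD15, and at 0.269, 0.398 and 0.400 FPKM at PD16. Ifit3 was at 0.538, 1.04 and 0.591 FPKM at PD14, at 0.743, 1.42 and 0.698 FPKM at PD15, and at 0.409, 0.379 and 0.879 FPKM at PD16. For both genes PD15 replicate 2 was the highest library and PD14 replicate 2 the next. The difference from PD15 to PD16 was -0.23 for Ifit1 (SE 0.14) and -0.32 for Ifit3 (SE 0.19), the latter the widest of any member in that comparison. Without PD15 replicate 2 these differences were -0.11 and -0.16, and that of Isg15, at -0.19, was the widest below 0. Ifit3b, a close copy of Ifit3 with which it may share reads, was at 0.609 FPKM in PD15 replicate 2 and at 0.0870 to 0.330 FPKM in the other libraries.

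Isg15, the most abundant member, was at 3.18, 2.14 and 1.82 FPKM at PD14, at 2.55, 2.67 and 2.21 FPKM at PD15, and at 2.39, 1.86 and 1.66 FPKM at PD16. Its highest library was PD14 replicate 1 and its lowest PD16 replicate 3, so its pattern departed from that of the IFIT genes. The mean was 2.38 ± 0.715 FPKM at PD14, 2.47 ± 0.237 at PD15 and 1.97 ± 0.374 FPKM at PD16.

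Irf7 was at 1.34, 1.05 and 1.17 FPKM at PD14, at 1.02, 1.72 and 0.765 FPKM at PD15, and at 1.15, 0.840 and 0.812 FPKM at PD16. As for Oasl2, PD15 held both the highest and the lowest library. The PD15 mean was 1.17 ± 0.497 FPKM with replicate 2 and 0.892 FPKM without it, against 1.19 ± 0.145 FPKM at PD14 and 0.932 ± 0.185 FPKM at PD16.

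PD15 replicate 2 was the highest library for 5 of the 8 members (Oas2, Oasl2, Ifit1, Ifit3 and Irf7), at 1.67 to 3.22 times the median of the other 8 libraries. It was the highest library for 8.59% of the 21783 genes above 0 in every library. In that library 7 of the 8 members lay above their own 9-library mean, and the mean deviation over the members was 0.33 on the log2 scale, against -0.12 to 0.04 in the other libraries. The median deviation of all tested genes was within 0.01 of 0 in each library. The leukocyte and macrophage markers (10 genes) summed to 33.8 FPKM in PD15 replicate 2, inside the range of 28.1 to 43.4 FPKM over all libraries. Of these markers, Ptprc, found on all leukocytes, was at 0.115 FPKM there and at 0.0779 to 0.127 FPKM over all libraries, Cd68 was at its highest there (2.67 FPKM) and Csf1r at its lowest (1.64 FPKM). The 6 markers of lymphocytes and plasmacytoid dendritic cells were each below 1 FPKM in every library. The part of these cells in the member levels was not tested.

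**Figure D2:**
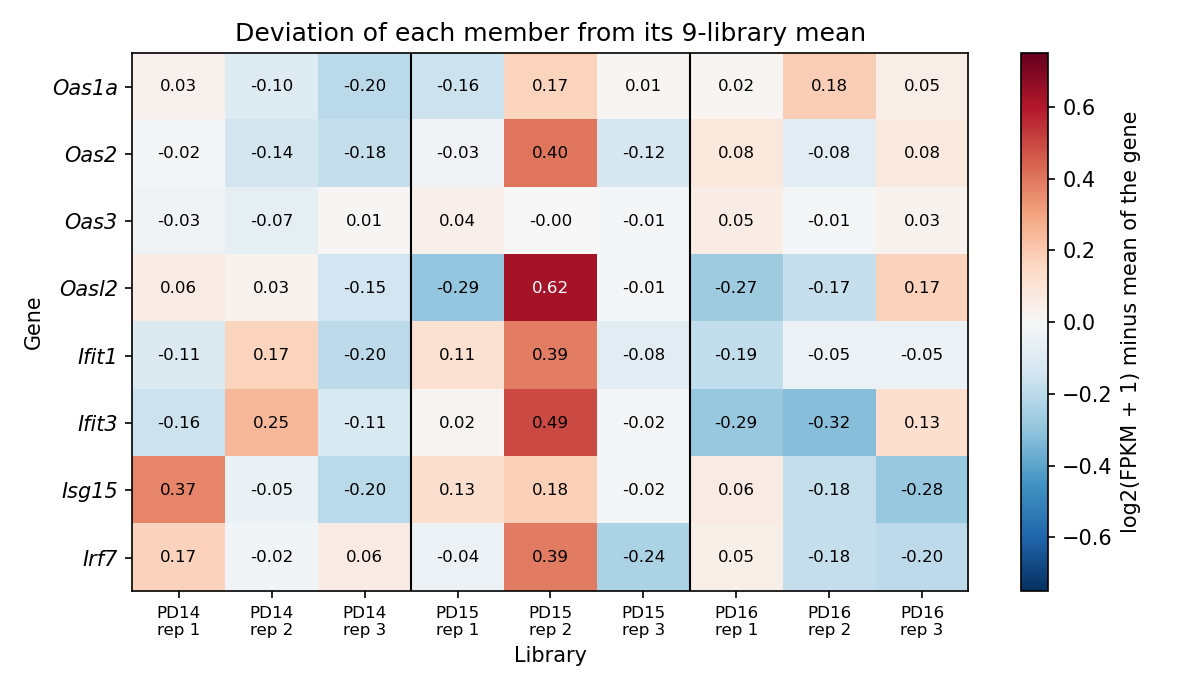
Deviation of log2(FPKM + 1) of each member (rows) from its own mean over the 9 libraries (columns, grouped by day), with the value in each cell and red for above the mean. In PD15 replicate 2, 7 of the 8 members lie above their mean, up to 0.62 for Oasl2, while Oas3 lies at its mean.

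The share of each member's variation in log2(FPKM + 1) that lay between day means ran from 9.57% for Oasl2 to 40.9% for Oas3, with a median of 27.0%. The median over all genes tested was 36.7%. Part of any such share arises without a difference between days, since means of 3 libraries scatter by themselves. Without PD15 replicate 2 the share went from 17.6% to 49.2% for Irf7, from 24.2% to 45.6% for Oas2 and from 31.2% to 46.4% for Oas1a, and it went down from 31.7% to 12.1% for Ifit1 and from 29.0% to 16.7% for Ifit3. The member median was then 30.8% and that of all genes tested 39.8%. Pearson's r between 2 members over the 9 libraries, which share depth and library effects, is given as a description: it was above 0 for 22 of the 28 pairs, with a median of 0.33. Without PD15 replicate 2 it was above 0 for 11 of the 28 pairs, with a median of -0.08. Ifit1 and Ifit3 kept an r of 0.69 over those 8 libraries (0.86 over all 9) and Isg15 and Irf7 an r of 0.62 (0.64 over all 9).

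The genes whose levels most resembled the mean member profile over the 9 libraries were ranked by Pearson's r, as a description, among 15492 tested genes outside the members. Among the 10 leading genes were Htra3 (r = 0.93), Oas1b (0.91), Gria3 (0.91), Inpp4a (0.91), Gm14434 (0.90), Ankrd42 (0.89), Ddb2 (0.88), Ddx58 (0.87) and Mfap1a (0.87). Of these, Oas1b and Ddx58, which encodes the RNA sensor RIG-I, belong to the interferon pathway lists used below. Oas1b was at 1.48 FPKM in PD15 replicate 2 and at 0.716 to 0.987 FPKM elsewhere, and Gm14434 at 4.47 FPKM there and at 0.0708 to 0.454 FPKM elsewhere. Without that library r was 0.87 for Ddb2, 0.79 for Gria3, 0.71 for Inpp4a, 0.61 for Ankrd42, 0.60 for Htra3 and 0.53 for Mfap1a, and it was 0.43 for Oas1b, 0.36 for Ddx58 and -0.22 for Gm14434.

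For context, 149 other genes of the pathway were read, in 9 lists. The lists held the rest of the OAS family with regulators of oligoadenylate signaling, interferon ligands, receptors and JAK-STAT proteins, and IRF factors. They also held sensors and adaptors, antiviral effectors, genes listed for ISG15 conjugation, interferon-gamma targets and genes that restrain the response. Of the 149 genes, 94 passed the filter and were tested with limma, with Benjamini-Hochberg adjustment over all 15495 genes tested. From PD14 to PD15, 0 of the 94 genes were called by limma, where 0.336% of all genes tested rose and 0.342% fell. From PD14 to PD16, 1 rose and 1 fell, where 2.36% of all genes rose and 1.89% fell. From PD15 to PD16, 0 of the 94 genes were called by limma, where 0.432% rose and 0.297% fell. At an unadjusted p under 0.05 the counts were 12, 13 and 11 of 94, where 14.7%, 22.8% and 14.1% of all genes tested passed. The counts at that threshold given for single lists below stand against the same 3 shares. The other settings tried called 0 of them in the first and last comparison. From PD14 to PD16 they called 6 with quantile normalization (2 higher, 4 lower), 4 with library weights (3 higher, 1 lower) and 0 with a replicate block. The medians over the 94 genes were 0.00, -0.05 and -0.02. In bulk tissue, fewer cells of a type and less RNA per cell cannot be told apart, and this holds for each change below.

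**Figure D3:**
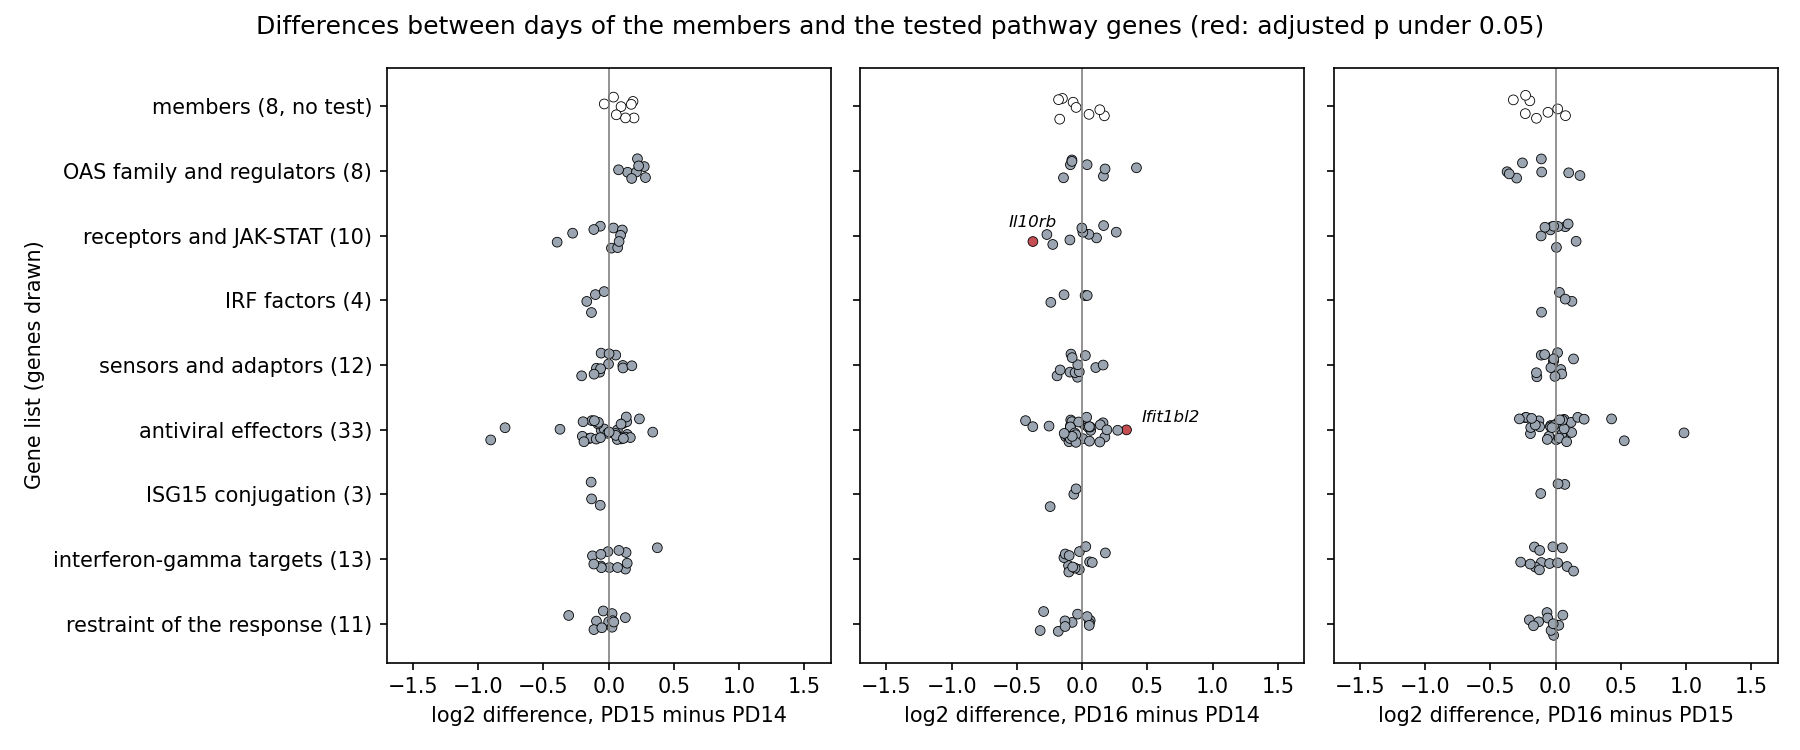
Difference in mean log2(FPKM + 1) (horizontal axis) for PD15 minus PD14, PD16 minus PD14 and PD16 minus PD15, with 1 point per gene and 1 row per list (spread vertically for sight). Open points are the 8 members, which have no test, gray points the tested pathway genes and red points those with a limma adjusted p under 0.05: Il10rb and Ifit1bl2, both for PD16 minus PD14.

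The other OAS genes covered a wide span of levels. Apart from Oasl1 and Oasl2, they lie in 1 cluster on chromosome 5 with Oas1a, Oas2 and Oas3. Oas1e was at 74.0 to 103 FPKM, Oas1c at 36.4 to 53.8, Oas1d at 25.1 to 39.0 and Oas1h at 23.5 to 35.7 FPKM. These 4 genes together summed to 164 to 232 FPKM in a library, whereas Oas1a, Oas1b, Oas1g, Oas2 and Oas3 together summed to 1.04 to 2.59 FPKM. Oas1d is known as an OAS gene of oocytes whose product lacks synthetase activity. Oas1f, at 1.85 to 3.74 FPKM, lay between these sets, Oasl1 was at 0.635 to 0.929 FPKM and Oas1g at 0.0177 to 0.0840 FPKM.

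**Figure D4:**
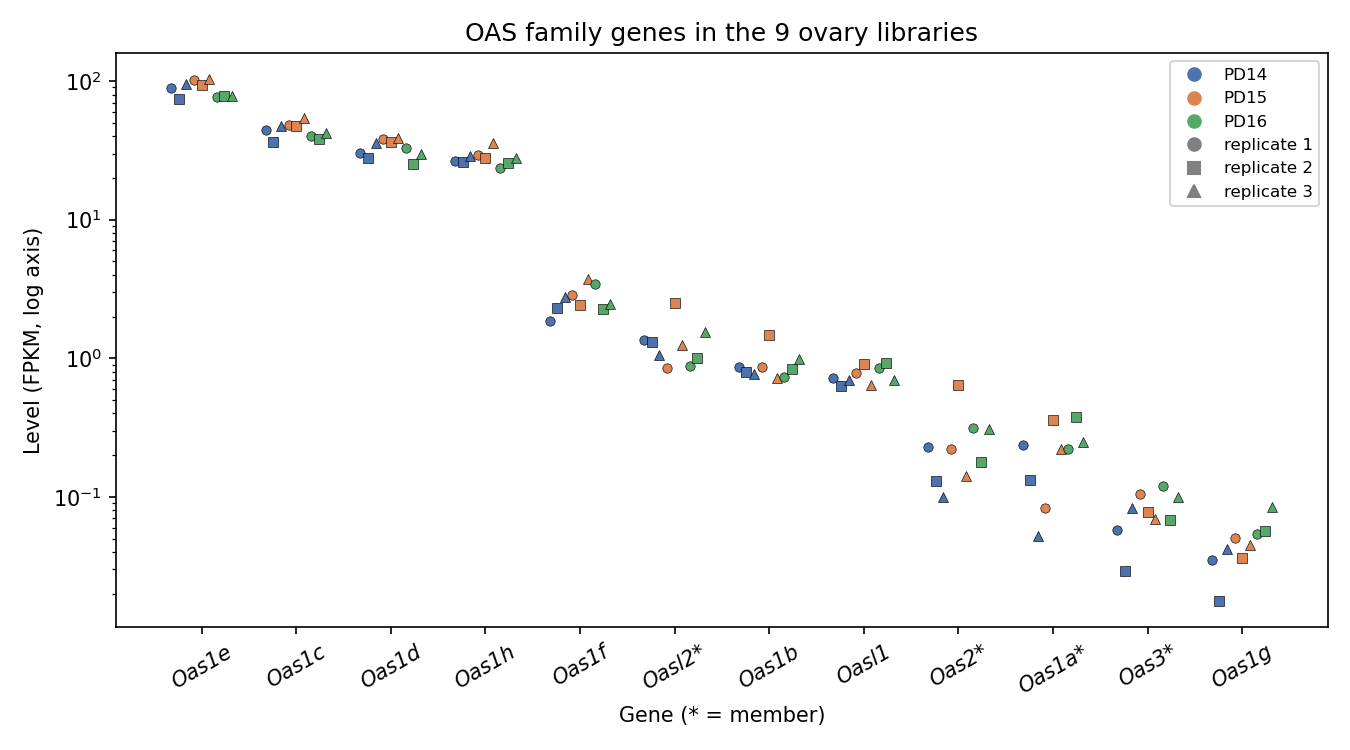
Level in FPKM (vertical axis, log scale) of the 12 OAS family genes in the 9 libraries, in order of mean level, with color for day and shape for replicate number; an asterisk marks a member. Oas1e, Oas1c, Oas1d and Oas1h lie above 20 FPKM in every library, while Oas2, Oas1a and Oas3 stay below 1 FPKM.

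None of these OAS paralogs was called on any day (0 of the 6 that passed the filter, by limma). Oas1e was at 89.2, 74.0 and 95.4 FPKM at PD14, at 102, 93.4 and 103 FPKM at PD15, and at 76.7, 77.9 and 78.0 FPKM at PD16. All 3 PD15 libraries lay above all PD16 libraries, as they did for Oas1c and Oas1d. The difference from PD15 to PD16 was -0.36 for Oas1e (adjusted p = 0.117, limma), -0.37 for Oas1d (adjusted p = 0.160, limma) and -0.30 for Oas1c (adjusted p = 0.197, limma). The oocyte markers (8 genes) summed to 969 to 1201 FPKM at PD14, 1224 to 1289 at PD15 and 913 to 966 FPKM at PD16. Their part in these values was not tested. All 8 tested genes of the list, which also holds 2 regulators, had a higher mean at PD15 than at PD14. The median difference over all genes tested was 0.01. Oas1c, Oas1d, Oas1e and Oas1h were all highest in PD15 replicate 3, so the 8 genes are not separate observations. In the 3 comparisons 3, 2 and 4 of the 8 had an unadjusted p under 0.05 (limma), where 14.7%, 22.8% and 14.1% of all genes tested did. Of the regulators, Abce1, which encodes a ribosome recycling factor, and Pde12, which encodes a phosphodiesterase that degrades oligoadenylates, had log2 differences of 0.42 and 0.18 from PD14 to PD16 (adjusted p = 0.0582 and 0.157, limma).

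Interferon ligands were close to undetected. Of 20 genes, 16, among them Ifnb1 and Ifng, were listed at 0 in every library. The others were Ifna9 (up to 0.147 FPKM), Ifna12 (up to 0.158 FPKM), Ifne, at 0.369 FPKM in PD14 replicate 1 alone, and Ifnk, at 0.0514 FPKM in PD14 replicate 2 alone. Ifna12 was at 0.148, 0.158 and 0.0873 FPKM at PD15, or 3, 3 and 2 fragments, and at 0 to 0.0527 FPKM, at most 1 fragment, in the libraries of PD14 and PD16. All 3 PD15 libraries were thus higher, by 1 to 3 fragments, with counting intervals that overlap those of the others. Ifna9 was highest in PD15 replicate 2 and overlapped between days. None of the 20 passed the filter.

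The type I receptor was present throughout. Ifnar1 was at 19.96 to 22.9 FPKM and Ifnar2 at 8.84 to 11.8 FPKM. Ifnar2 was lower in all libraries of PD15 and PD16 than in all of PD14, with log2 differences of -0.28 and -0.27 (adjusted p = 0.107 and 0.0533, limma). Stat2 was at 5.48 to 6.88 and Irf9 at 3.76 to 5.32 FPKM. Both genes were highest in PD15 replicate 2, Stat2 by a narrow margin (6.88 FPKM against 6.78 in PD16 replicate 1). Their differences between days did not pass the test. Among the kinases, Jak1 had a mean of 87.1 FPKM, and its difference from PD14 to PD16 was 0.26 (adjusted p = 0.0579, limma). Jak2 had a mean of 19.3 FPKM. The receptor chain gene Ifngr2 had a mean of 28.1 FPKM and 0 calls.

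Il10rb, which encodes a receptor chain shared by interferon lambda and interleukin 10, was at 5.33, 4.57 and 5.22 FPKM at PD14, at 3.06, 3.86 and 3.88 FPKM at PD15, and at 3.73, 3.64 and 3.55 FPKM at PD16. Every PD14 library was above every later one. It fell by 0.38 on the log2 scale from PD14 to PD16 (SE 0.09, adjusted p = 0.0449, limma). That call was often lost: the adjusted p was under 0.05 in 10 of 19 other fits, and it was 0.0926 with a replicate block (limma). The difference from PD14 to PD15 was -0.40 (adjusted p = 0.0851, limma). Between the same days the summed oocyte markers went from 969 to 1201 FPKM at PD14 to 913 to 966 FPKM at PD16, with no overlap. The summed markers of endothelium (5 genes) went from 56.6 to 59.7 FPKM at PD14 to 50.9 to 53.2 FPKM at PD16, and those of oviduct and surface epithelium (5 genes) from 26.2 to 28.5 FPKM to 18.7 to 21.1 FPKM, with no overlap. The leukocyte and macrophage markers (10 genes) went the other way, from 28.1 to 30.9 FPKM at PD14 to 34.3 to 43.4 FPKM at PD16. Their part in the levels of Il10rb and of Ifit1bl2, described below, was not tested.

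The IRF factors, which bind interferon genes and their targets, held 0 calls by limma among 4 tested genes, with 1, 0 and 0 at an unadjusted p under 0.05. Irf3, the factor that first induces interferon genes, had a mean of 18.6 FPKM, Irf1 of 10.6, Irf2 of 3.41 and Irf5 of 0.876 FPKM. All 4 had a lower mean at PD15 than at PD14, where the median difference over all genes tested was 0.01.

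Sensors and adaptors, which detect viral RNA or DNA and pass on the signal, held 0 calls by limma among 12 tested genes, with 1, 1 and 0 at an unadjusted p under 0.05. The most abundant were Trim25 (mean 16.6 FPKM), Tbk1 (13.7), Mavs (13.7) and Myd88 (6.71 FPKM). Ddx58 had a mean of 3.58 FPKM and was highest in PD15 replicate 2, at 4.42 FPKM against 3.15 to 3.69 elsewhere.

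Of 33 tested antiviral effectors, 1 was called by limma, higher at PD16 than at PD14, where 2.36% of all genes tested rose. At an unadjusted p under 0.05 (limma) the list held 3, 4 and 5 genes in the 3 comparisons. Ifit1bl2, a gene of the IFIT family, was at 6.35, 5.69 and 6.24 FPKM at PD14, at 7.63, 7.41 and 8.90 FPKM at PD15, and at 7.53, 8.52 and 7.89 FPKM at PD16. Unlike Ifit1 and Ifit3, it was higher in all later libraries than in all PD14 libraries, and it rose by 0.34 from PD14 to PD16 (SE 0.08, adjusted p = 0.0441, limma). The difference from PD14 to PD15 was 0.34 (adjusted p = 0.0941, limma). The most abundant effectors were Bst2, which encodes tetherin (mean 364 FPKM), the membrane protein genes Ifitm2 (124) and Ifitm3 (62.1), and Ifi27 (37.2 FPKM), with 0 calls.

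Both differences from PD14 to PD16 kept their size with each library left out in turn, at -0.44 to -0.34 for Il10rb and 0.30 to 0.38 for Ifit1bl2, while the calls were often lost. The adjusted p (limma) without 1 library at a time and in other settings ranged from 0.0336 to 0.140 for Il10rb and from 0.0269 to 0.118 for Ifit1bl2. It was under 0.05 in 10 and 7 of 19 such fits. Neither was called without PD14 replicate 1, PD14 replicate 3, PD15 replicate 2, PD16 replicate 1, PD16 replicate 2 or PD16 replicate 3.

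The 3 tested genes listed for ISG15 conjugation were Ube2l6 (mean 8.004 FPKM), Trim21 (3.30) and Uba7 (1.43 FPKM). They held 0 calls and 0 genes at an unadjusted p under 0.05 by limma. Usp18, the protease that removes ISG15, did not pass the filter: it was highest in PD15 replicate 2, at 1.04 FPKM against 0.334 to 0.972 elsewhere. The interferon-gamma targets, guanylate-binding proteins, immunity-related GTPases and proteasome subunits, held 0 calls among 13 tested genes, with 1, 0 and 0 at an unadjusted p under 0.05. Psmb10 (mean 11.4 FPKM), Gbp2 (6.59), Gbp7 (3.95) and Irgm1 (3.90 FPKM) were the most abundant. Genes that restrain the response held 0 calls among 11 tested genes, with 1, 3 and 1 at an unadjusted p under 0.05, and Rnaseh2c (mean 36.1 FPKM), Rnaseh2a (11.4), Pias1 (10.2) and Trim24 (9.73 FPKM) were the most abundant.

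PD15 replicate 2 was the highest library also for many pathway genes: for 34 of the 123 that were above 0 in every library, or 27.6%, beside 8.59% of all genes above 0 in every library. Among them were Stat2, by a narrow margin (6.88 FPKM against 5.48 to 6.78 elsewhere), and Irf9 (5.32 against 3.76 to 4.84). Outside the naming rule given below, Rtp4 (5.15 FPKM against 2.23 to 3.52), Mx2 (1.94 against 1.08 to 1.62) and Iigp1 (2.80 against 1.48 to 2.498 FPKM) were others. Bst2 (387 FPKM there, up to 414 elsewhere), Ifit2 (3.99, up to 4.72) and Oasl1 (0.902, up to 0.929) were highest in other libraries. By list, PD15 replicate 2 was highest for 0 of 6 IRF factors, 1 of 10 genes of the OAS list and 3 of 5 genes listed for ISG15 conjugation. The median deviation of the 94 tested pathway genes in that library was 0.06 on the log2 scale, against -0.03 to 0.04 in the others.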

How the data were processed

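RNA of 9 Kunming mouse ovary libraries (PD14, PD15 and PD16, 3 each) was sequenced by the authors. The deposited tables give 1 FPKM value per gene and library, already normalized by the authors for gene length and mapped fragments. Per the submitters' processing notes, HISAT2 2.0.5 and mm10 were used; the counting tool, strand setting and annotation are not given in the sources used here. FPKM cannot be compared free of composition, and low values rest on few fragments. Groups were taken from the labels. Depth was recovered from the spacing of low FPKM values with exon lengths of GENCODE M21, which matched 97% of the 52025 genes; 94.9% to 95.3% of low values were whole fragments within 0.05. No count model was run.

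The 15495 genes whose mean level exceeded 1 FPKM at any age entered a limma 3.58.1 fit of log2(FPKM + 1) (R 4.3.3, intensity trend, 9 libraries together), with Benjamini-Hochberg adjustment over all of them and a threshold of 0.05. The script was tested on simulated data. SEs of members come from the same model fitted to every gene above 0 in at least 1 library. The members and lists were chosen with earlier results of these data known. Named were all members, called pathway genes, up to 4 abundant genes per list, Ifnar1, Ifnar2, Stat2, Irf9, OAS genes and the 10 genes most like the member mean. Some genes that this rule or the lists hold are not reported here, and list counts leave them out. Of 151 list entries, 149 matched; the other 2 are later symbols of genes listed already. Alternatives were other pseudocounts, filters, scalings, variance models, a replicate block, 2 days only and each library left out. Python 3.11.15, pandas 2.3.3, SciPy 1.17.1 and Matplotlib 3.10.9 were used.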

Additional observations from a re-analysis of the deposited data

How the results depend on the processing

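Counts of genes called depended on the settings. Over all genes, the main counts were 105 (PD14 to PD15), 659 (PD14 to PD16) and 113 (PD15 to PD16). With every gene above 0 in at least 1 library they were 29, 172 and 24. With only the 2 days compared they were 47, 320 and 93. They were 184, 944 and 237 with library weights, and 105, 734 and 136 with quantile normalization. With each library left out in turn they ranged from 3 to 92, 92 to 660 and 14 to 125. Pathway genes called numbered 0, 2 and 0. From PD14 to PD16 the pathway count was 0 with every gene above 0, 6 with quantile normalization, 4 with library weights, 1 without the intensity trend and 1 with only the 2 days compared, and 0 to 3 with a library left out; in the other comparisons it was 0 in every alternative. Same-numbered libraries correlated in their deviations from -0.21 to 0.16 and differently numbered ones from -0.20 to 0.21, so no pairing by number was seen. These values cannot show whether libraries share a litter or batch. With a replicate block, 24, 227 and 56 genes and 0, 0 and 0 pathway genes were called. Il10rb and Ifit1bl2 kept their call from PD14 to PD16 in 10 and 7 of 19 alternatives. Their direction could not turn with a library left out, since the libraries of the 2 days did not overlap.

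The member median from PD14 to PD15 was 0.29 with a pseudocount of 0.1, and 0.02 to 0.19 with each library left out. From PD14 to PD16 it was -0.13 to 0.01 and from PD15 to PD16 -0.27 to 0.0203 with each library left out. In the last comparison it was above 0 only without PD15 replicate 2. The cause of these shifts was not tested. Depth limits Oas1a, Oas2, Oas3, Ifit1, Ifit3 and Isg15, which had under 70 fragments in each library.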

Other observations

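Neighbouring interferon-inducible genes of the Ifi200 family varied by single libraries; these genes were named after their values were seen. Mndal was at 0.0114 FPKM in PD15 replicate 1 and at 1.40 to 3.12 FPKM in the other 8 libraries, and Ifi203 was also lowest in that library, at 0.574 FPKM against 1.43 to 2.22 elsewhere. Ifi204 was at 6.32 FPKM in PD14 replicate 2 and at 0.0772 to 1.29 FPKM in the others, with its lowest value again in PD15 replicate 1. None of these genes was called by limma in any comparison.

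The window before Oas1c, one of the abundant OAS genes, held 2 overlapping matches to the ISRE core, which begin 108 and 114 bases before its start. Oas1b is transcribed in the opposite direction and begins 120 bases from the start of Oas1c, so that both genes share this stretch. Oas1c had a mean of 44.2 FPKM and Oas1b of 0.893 FPKM. In PD15 replicate 2 Oas1b was at its highest (1.48 FPKM), while Oas1c was at 47.3 FPKM, within its range of 36.4 to 53.8 FPKM.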
